A study of Mus musculus with 35 samples.

Results

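The injured brains of mice treated with mesenchymal stromal cells (MSCs) at 1 week post injury (1 wpi) were compared with the brains of uninjured Sham mice, across all genes measured by RNA-seq. The MSC group was taken by its label and held 5 of the 34 libraries of the series, each from 1 mouse, and the Sham group held another 5. Of 21203 genes in the deposited table, 17131 had enough counts to be tested. The mice were male and of the C57BL/6NCrl background, and were between 8 and 9 weeks old when procedures began. Mice of the MSC group received a closed head injury, and 5 days later MSCs were injected into the left hippocampus. Tissue around the injection site was taken 2 days after the injection. The MSCs were primary cells of 1 commercial lot, harvested from mice of the same strain. Sham mice went through the procedure without the impact, and their treatment label reads none, so injury, injection and cells cannot be told apart in this comparison. Injured mice injected with PBS and sampled at 1 wpi (PBS, 5 mice) and injured mice treated with MSCs and sampled at 3 wpi (5 mice) were used where they bear on the MSC group, and injured mice given MSCs that carried IL-4 mRNA (IL-4 MSCs, 5 mice at 1 wpi) are shown for a few genes only. Of the 5 Sham mice, replicates 0 and 1 carry a label of week 1 and replicates 2, 3 and 4 a label of week 3. In the sample labels a number that precedes the mouse number is shared within a treated group and differs between groups, so whatever it marks cannot be told apart from the group. Within Sham this number differs between the mice of week 1 and those of week 3.

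After a blow to the head, dying cells and blood products activate the resident glia. Astrocytes build up intermediate filaments and secrete acute-phase proteins, microglia leave their surveying state and become phagocytic, and monocytes enter from the blood, drawn by chemokines. Interferons, complement and antigen presentation are engaged alongside, and activity of neurons and their lipid supply can change in the same tissue.

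The libraries held between 31026151 and 36812413 estimated counts in MSCs and between 30783526 and 41554322 in Sham. The floor used here was 3 counts in a library, equal to between 0.0722 and 0.0975 CPM (counts relative to library size), and it covers counting error only. Pairs of mice of a group correlated across genes with Pearson's r between 0.985 and 0.994, and genes are not independent replicates. The labels give the tissue as left cortex, while defining genes of other regions were present in every library, among them the dentate gyrus gene Prox1 between 54.6 and 75 CPM and the thalamic gene Tcf7l2 between 51.9 and 100.5 CPM. The mean log2 CPM of 13 striatal genes was 3.66 and 3.56 in the Sham mice of week 1, against 5.42, 5.56 and 5.71 in those of week 3, and 5.45, 5.13, 5.69, 4.36 and 3.63 in the MSC mice. The mean log2 CPM of 10 choroid plexus genes ranged from 1.47 to 3.75 in Sham and from 2.94 to 4.36 in MSCs. Levels of regional genes thus varied between mice within both groups, and 1 mouse of each group stood apart in immune genes. Replicate 2 of MSCs had the highest level of its group in the lists of monocytes, MHC class II, chemokines and cytokines, and replicate 4 of Sham the highest of its group in those of monocytes, complement and cytokines. Nothing in the labels says that mice of a treated group came from separate experiments. The Sham mice carry 2 week labels and 2 preceding numbers, so the Sham spread includes any difference between those sets. P-values measure the spread between these mice.

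Against Sham, 1875 genes were higher in MSCs and 1175 were lower (edgeR's quasi-likelihood test, two-sided, Benjamini-Hochberg adjusted p under 0.05 over all genes tested). These 3050 genes were 17.8% of the genes tested, with 10.9% higher and 6.86% lower. The rises were larger than the falls. The median log2 fold change was 0.56 among the higher genes, of which 502 were at least 2-fold higher, 159 at least 4-fold and 66 at least 8-fold. Among the lower genes the median was -0.15, and 12 were at least 2-fold lower. Higher genes had a median Sham level of 6.01 CPM and lower genes one of 112 CPM. For 2401 genes, 14.0% of those tested, the 5 MSC mice did not overlap the 5 Sham mice, and 1331 of the higher and 709 of the lower genes were among them. Over all genes tested the median log2 fold change was -0.01.

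The count of lower genes was the less stable part of this comparison. When libraries were scaled by their totals alone, 2407 genes were higher and 373 lower, which moved the higher share of the calls from 61.5% to 86.6%. With the Sham mice of week 3 alone 532 genes were lower. Without Sham replicate 0, 1 or 2 there were 648, 647 and 702, and without MSC replicate 2 there were 771. The count of higher genes stayed between 1535 and 1958 in the fits that left out a mouse, used the replicate block or took Sham mice of 1 week only.

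**Figure D1:**
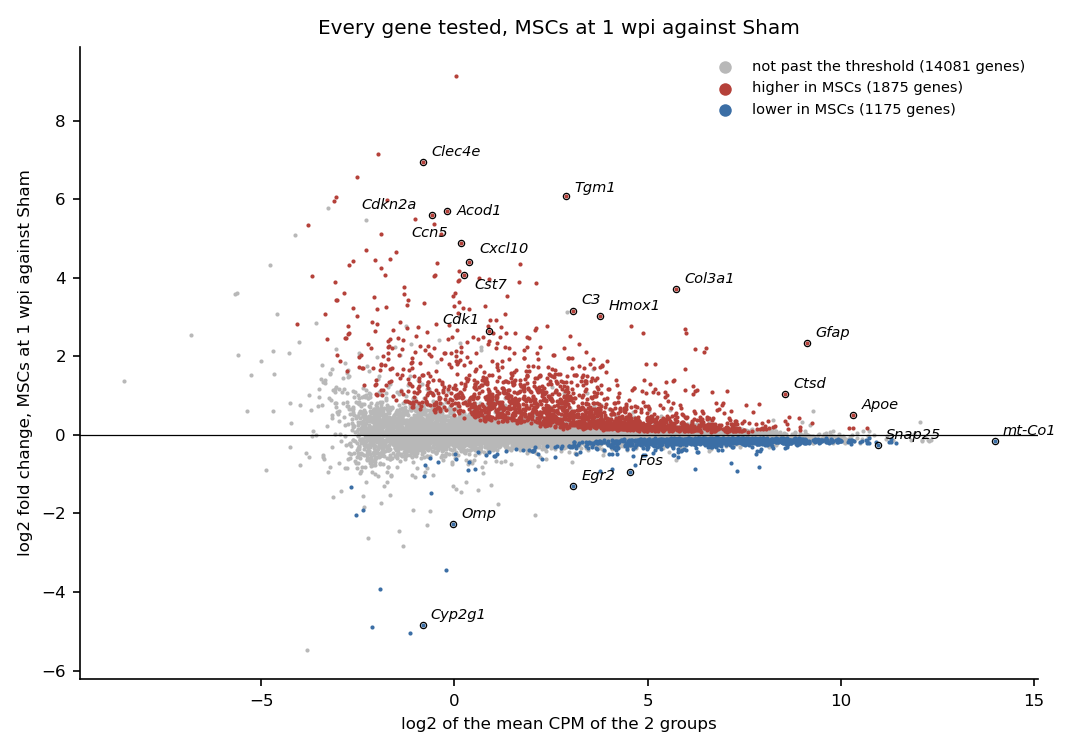
Each point is a gene, with its mean level in the 2 groups on the x axis (log2 CPM) and its log2 fold change, MSCs at 1 wpi against Sham, on the y axis; red and blue points passed the test. The 1875 higher genes reach far from 0 at low and middle levels, while the 1175 lower genes lie close to 0 and mostly among abundant genes.

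Genes were grouped in 48 lists of cell type markers and pathways, whose names describe what the genes are known for. Since the tissue was sequenced in bulk, a higher number of cells of a type and more RNA per cell cannot be told apart. In the plot of all lists, those of glia, monocytes, interferon, antigen presentation and cell division lie to the right, and those of neuronal activity and cholesterol synthesis to the left. Their counts are to be read against the 10.9% of all genes that were higher and the 6.86% that were lower.

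**Figure D2:**
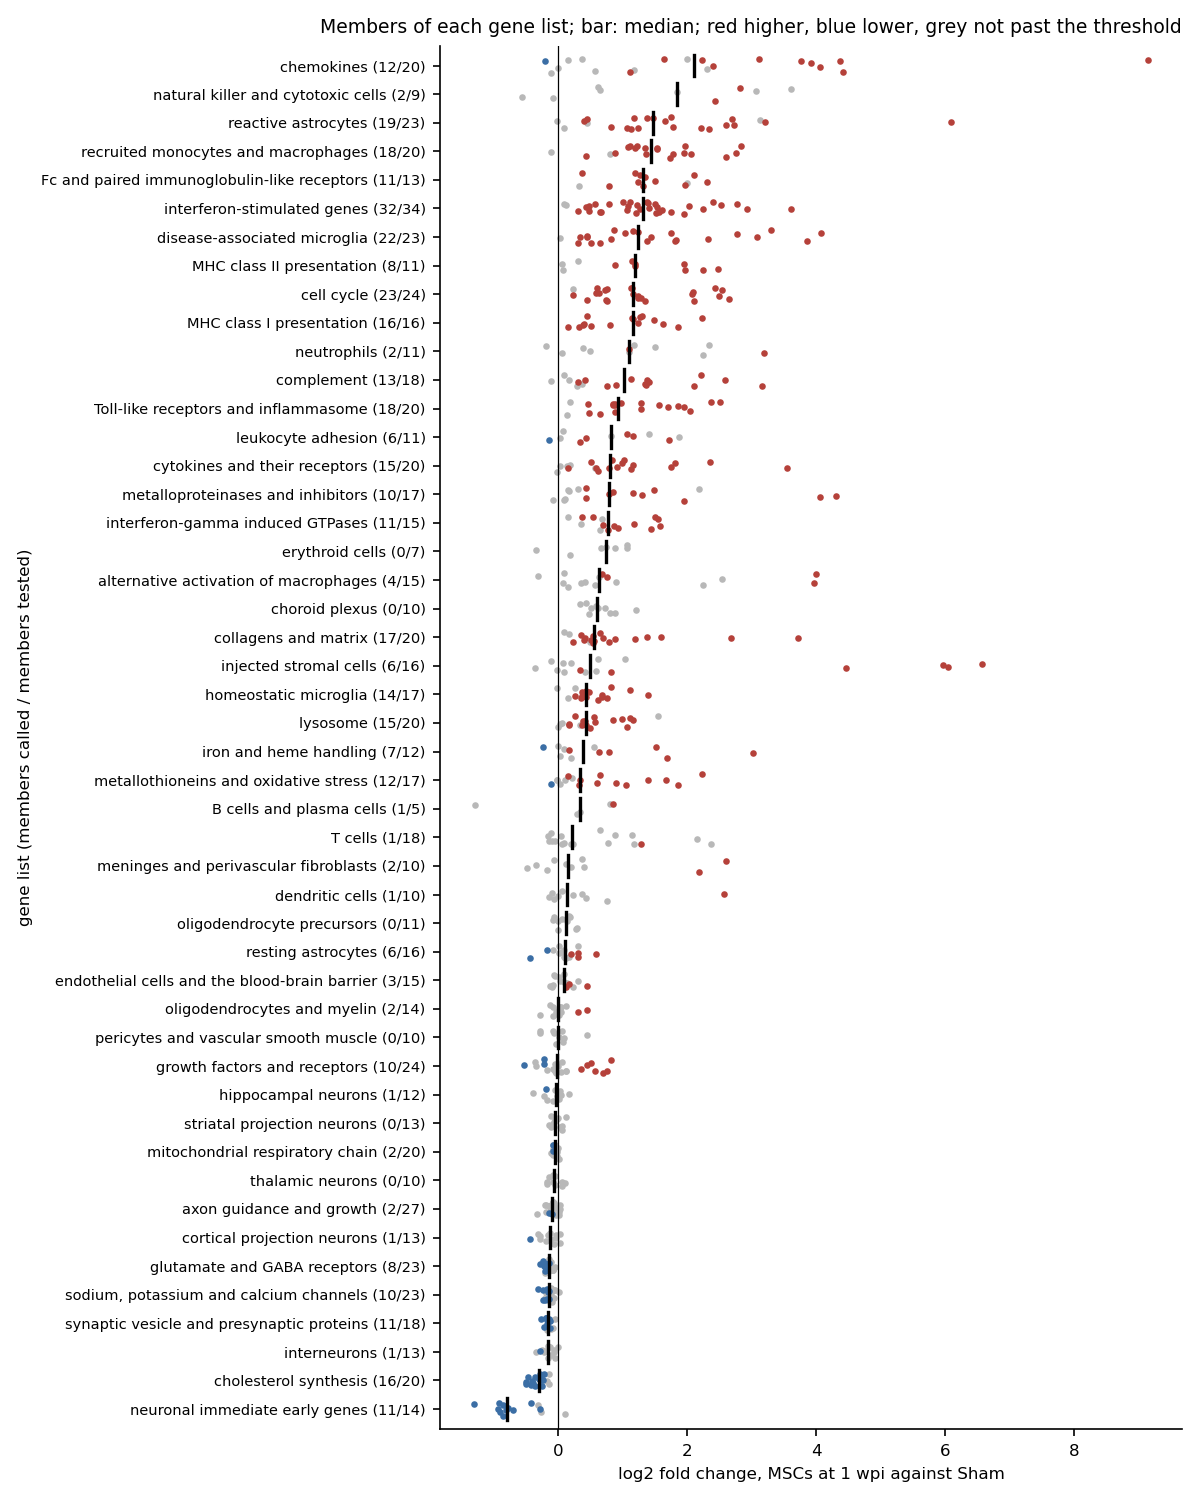
Each row is a gene list with the number of its members called and tested, each point a member, and the x axis the log2 fold change of MSCs at 1 wpi against Sham; red points were higher, blue points lower, grey points did not pass the test, and black bars are medians. List medians run from 2.11 for chemokines to -0.80 for neuronal immediate early genes.

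Markers of reactive astrocytes rose, 19 of 23 tested members, with a median log2 fold change of 1.46. Gfap, the intermediate filament of astrocytes, stood at 189.8, 216, 173, 156 and 175 CPM in the Sham mice (replicates 0 to 4) and 845, 876, 1007, 895 and 996 CPM in the MSC mice. The highest Sham mouse was far below the lowest MSC mouse (log2 fold change ± SE 2.34 ± 0.19, adjusted p = 2.71e-09, and likewise in the parentheses that follow). Vim, another filament, and Serpina3n, a secreted protease inhibitor, were higher by 2.21 and 2.69 on the log2 scale. Tgm1, a transglutaminase, had the largest change of the list. Its level was 0.143, 0.172, 0.268, 0.247 and 0.247 CPM in Sham and 14.4, 9.29, 28.5, 13.6 and 7.39 CPM in MSCs, and the groups did not overlap (6.09 ± 0.49, adjusted p = 2.33e-09). Lcn2, which encodes a secreted iron-binding lipocalin, had a log2 fold change of 3.13 that did not pass the test (adjusted p = 0.0987).

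Genes of resting astrocytes moved in both directions, with 4 of 16 members higher, 2 lower and a median of 0.10. The 6 called were 37.5% of the list, against 17.8% of all genes tested. The water channel Aqp4 was 175, 191, 164, 161 and 150.2 CPM in Sham and 253, 246, 262, 255 and 254 CPM in MSCs, without overlap (0.59 ± 0.11, adjusted p = 0.000121). Slc1a3, Gja1 and Aldh1l1 also rose, by 0.20, 0.30 and 0.31, while Gpc5 and Ranbp3l fell by 0.17 and 0.44 on the log2 scale. Slc1a2, the main glutamate transporter, changed by 0.01 and did not pass the test.

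Microglial genes were higher in 14 of 17 members of the homeostatic list and 22 of 23 of the list known from disease-associated microglia, with medians of 0.43 and 1.24. Within the homeostatic list the size of the change varied from gene to gene. The purinergic receptor P2ry12 was 35.3, 30.1, 32, 27.6 and 29.3 CPM in Sham and 35.9, 31.7, 35.3, 33.8 and 35.1 CPM in MSCs, with overlapping mice (0.15 ± 0.09, adjusted p = 0.296). Fcrls, an Fc receptor-like protein of microglia, was 15.3, 14.3, 15.2, 13.9 and 24.2 CPM in Sham and 42.3, 39.3, 54.9, 38.6 and 41.4 CPM in MSCs (1.39 ± 0.14, adjusted p = 2.98e-08). The MSC mice all lay above the Sham mice, of which replicate 4 was the highest. Csf1r, the receptor that microglia need for survival, rose by 0.76, Cx3cr1 by 0.68 and Tmem119 by 0.61.

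Among the disease-associated genes Trem2, a lipid-sensing receptor, was 5.64, 5.91, 5.74, 4.36 and 7.41 CPM in Sham and 13.7, 16.1, 15.6, 14.3 and 15.1 CPM in MSCs (1.37 ± 0.15, adjusted p = 6.23e-08). Cst7, a cystatin that inhibits cysteine proteases, had the largest change, with 0.115, 0.123, 0.168, 0.0619 and 0.185 CPM in Sham and 1.86, 2.25, 2.94, 1.43 and 2.78 CPM in MSCs (4.08 ± 0.47, adjusted p = 1.53e-07). Neither gene overlapped between the groups. Lgals3, Itgax and Clec7a, a galectin, an integrin and a pattern receptor, were higher by 3.86, 3.29 and 3.08 on the log2 scale, and Spp1, which encodes osteopontin, by 1.82. The growth factor Igf1 was the member that did not pass the test (0.02).

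Markers of recruited monocytes and macrophages were higher in 18 of 20 members, with a median of 1.44. Ccr2, the chemokine receptor that brings monocytes into tissue, was 0.917, 0.787, 1.17, 0.773 and 1.33 CPM in Sham and 2.57, 3.28, 6.83, 1.72 and 1.97 CPM in MSCs. MSC replicate 2 had the highest value, and the remaining MSC mice still lay above all Sham mice (1.73 ± 0.34, adjusted p = 0.000401). Ly6c2, a surface protein of inflammatory monocytes, was 0.0859, 0.0738, 0.0336, 0 and 0.0926 CPM and 0.356, 0.334, 0.614, 0.637 and 0.25 CPM (2.83 ± 0.67, adjusted p = 0.00276), a range near the lowest detectable level. Its call was lost with the Sham mice of week 1 alone. Fn1, S100a4 and Thbs1 were higher by 1.11, 2.60 and 1.94, and the pan-myeloid integrin Itgam by 1.08. Itga4 and F13a1, with -0.12 and 0.80, did not pass the test.

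Of 11 neutrophil genes 2 passed the test, although the median was 1.09. S100a8, a subunit of calprotectin, was 0.229, 0.221, 0.57, 0 and 0.834 CPM in Sham and 1.15, 0.971, 5.15, 0.924 and 0.967 CPM in MSCs, with MSC replicate 2 well above the others (2.34 ± 0.84, adjusted p = 0.054). Mmp8, the neutrophil collagenase, was 0.0286, 0.0492, 0.0336, 0 and 0.124 CPM and 0.356, 0.304, 1.04, 0.127 and 0.437 CPM (3.19 ± 0.74, adjusted p = 0.00205), and Csf3r was higher by 1.09. Of the listed genes Camp, Elane, Ly6g and Cd177 had too few counts to be tested.

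Lymphoid genes were scarce in both groups. In the T cell list 1 of 18 members passed the test, and the T cell receptor subunit Cd3e was 0.115, 0.123, 0.0671, 0.0309 and 0 CPM in Sham and 0.109, 0.364, 0.133, 0.127 and 0.0624 CPM in MSCs, with overlap (1.14 ± 0.52, adjusted p = 0.14). The member that passed was Cd5 (0.0859, 0.221, 0.101, 0.0928 and 0.185 CPM and 0.465, 0.395, 0.347, 0.255 and 0.25 CPM; 1.28 ± 0.33, adjusted p = 0.00502). Its call was lost with the Sham mice of week 1 alone. Killer cell and granule genes were near the lowest detectable level, 2 of 9 being higher, Klrd1 and Klrb1c. Neither passed without MSC replicate 2 or with the Sham mice of week 3 alone. Klrb1c had 2 counts over the Sham mice and 18 over the MSC mice, a ratio of 8.98 (95% counting interval 2.15 to 79.8), and the call was lost without Sham replicate 0, 1, 2 or 4 or MSC replicate 1, 2 or 3 (adjusted p between 0.0623 and 0.0816). In the B cell list Cd22, a sialic acid receptor also made by microglia, passed the test (0.85 ± 0.16, adjusted p = 0.000258), while the receptor subunit Cd79a did not (0.34 ± 0.39, adjusted p = 0.626). The dendritic cell list had 1 member of 10 past the test, Ccr7 (2.57 ± 0.81, adjusted p = 0.0239), but the call was lost without Sham replicate 0 or 2 or MSC replicate 2 (adjusted p between 0.0555 and 0.149).

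Complement genes rose in 13 of 18 members (median 1.01). C1qa, a chain of the first component, was 24.6, 24.8, 25.6, 25.5 and 39.8 CPM in Sham and 68.6, 73.4, 81.9, 69.4 and 78.2 CPM in MSCs, without overlap (1.41 ± 0.17, adjusted p = 4.89e-07). C3, the protein on which the pathways converge, was 1.03, 1.94, 1.07, 2.04 and 2.35 CPM and 8.02, 14, 30.9, 8.69 and 14.3 CPM (3.16 ± 0.74, adjusted p = 0.00281). All MSC mice lay above all Sham mice for C3, and MSC replicate 2 was the highest. The call of C3 was lost with the Sham mice of week 1 alone. C4b rose by 2.10, and the anaphylatoxin receptors C3ar1 and C5ar1 by 2.21 and 2.58. The regulators Cd55 and Cd59a changed by -0.12 and 0.08 and did not pass the test.

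Interferon-stimulated genes were higher in 32 of 34 members, with a median log2 fold change of 1.31, and for 32 members the MSC mice did not overlap the Sham mice. These genes are switched on through the factor complex ISGF3 and through interferon regulatory factors, which bind an element made of repeated GAAA. Promoter letters are shown for 4 members, Ifit1, Isg15, Oas1a and Bst2, and for Gbp2 and Irgm1 of the list of interferon-gamma induced GTPases, because many genes of both lists rose and such an element was matched in these. Each line gives part of the 250 bases before the RefSeq start of the gene in GRCm38.p6, read 5′ to 3′ on the gene's strand, and capitals mark each match to GAAA, any 2 bases and GAAA on either strand. Coordinates are chr19:34640765-34640833 on the plus strand for Ifit1, chr4:156200855-156200916 on the minus strand for Isg15, chr5:120907526-120907565 on the minus strand for Oas1a, chr8:71537567-71537622 on the minus strand for Bst2, chr3:142620584-142620633 on the plus strand for Gbp2 and chr11:48871421-48871470 on the minus strand for Irgm1.
Ifit1: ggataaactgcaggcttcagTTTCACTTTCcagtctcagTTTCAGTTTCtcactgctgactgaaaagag
Isg15: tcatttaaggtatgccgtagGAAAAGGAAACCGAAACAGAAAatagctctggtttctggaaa
Oas1a: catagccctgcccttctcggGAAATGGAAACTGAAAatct
Bst2: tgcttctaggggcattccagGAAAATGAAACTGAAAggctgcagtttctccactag
Gbp2: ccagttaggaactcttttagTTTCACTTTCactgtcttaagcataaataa
Irgm1: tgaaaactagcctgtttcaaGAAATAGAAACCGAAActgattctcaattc
In Ifit1 and Gbp2 the matches read on the opposite strand, as TTTC repeats, and in Isg15, Oas1a, Bst2 and Irgm1 neighbouring matches overlap and share a GAAA. Of the 34 interferon-stimulated genes, 25 had a promoter in the RefSeq table and 12 of these held the motif (48%). Of 15 interferon-gamma induced GTPases, 10 had a promoter and 9 held it (90%). These are counts of genes with a match in at least 1 of their promoters. Counted in the same way, the motif was present for 436 of 13279 genes tested that had a promoter (3.28%). It was present for 95 of 1474 of the genes higher in MSCs (6.45%) and for 29 of 908 of the lower genes (3.19%). A match describes the letters and is no evidence of binding.

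Ifit1, which binds foreign RNA, was 2.26, 2.49, 2.55, 1.86 and 2.72 CPM in Sham and 6.79, 5.83, 5.15, 9.01 and 7.39 CPM in MSCs (1.52 ± 0.25, adjusted p = 3.11e-05). Zbp1, a sensor of Z-form nucleic acid, had the largest change of the interferon-stimulated list, with 0.0573, 0.0492, 0.168, 0.217 and 0.278 CPM and 1.51, 1.61, 1.12, 3.44 and 1.65 CPM (3.61 ± 0.42, adjusted p = 1.57e-07). In both genes replicate 3 was the highest MSC mouse and replicate 2 the lowest. Irf7, the regulator that amplifies type I interferon, was higher by 2.77, Oas1a by 2.39, Bst2 by 2.02 and Isg15 by 1.20. Cmpk2 and Herc6, with 0.11 and 0.08, were the members that did not pass the test.

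GTPases known to be induced by interferon-gamma were higher in 11 of 15 members (median 0.77). Gbp2, a guanylate-binding protein, was 2.66, 2.66, 2.38, 2.47 and 3.61 CPM in Sham and 7.61, 8.2, 7.45, 9.78 and 7.24 CPM in MSCs (1.54 ± 0.20, adjusted p = 7.78e-07). Iigp1 was 1.46, 1.48, 1.48, 1.24 and 1.3 CPM and 4.38, 3.79, 2.64, 6.27 and 3.65 CPM (1.57 ± 0.27, adjusted p = 8.97e-05), and neither gene overlapped between the groups. Irgm1 rose by 1.17. Families of near-identical genes such as these share sequence, so the division of counts between close copies, Tgtp1 and Tgtp2 for example, is uncertain.

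All 16 MHC class I presentation genes were higher in MSCs (median 1.15). The heavy chain H2-K1 was 19.4, 19.7, 18.7, 19.9 and 19.1 CPM in Sham and 44.5, 45.8, 47.4, 49.7 and 48.9 CPM in MSCs, with little spread in either group (1.29 ± 0.20, adjusted p = 1.94e-05). Its partner B2m and the peptide transporter Tap1 rose by 1.14 and 1.26. Nlrc5, the transactivator of class I genes, had the largest change, with 0.773, 1.16, 0.671, 0.928 and 1.14 CPM and 3.94, 4.4, 4.54, 5.19 and 3.99 CPM (2.22 ± 0.26, adjusted p = 1.74e-07). Class I heavy chains are similar in sequence, so values of single H2-Q genes are uncertain.

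Of 11 MHC class II presentation genes, 8 were higher (median 1.18). The invariant chain Cd74 was 3.44, 3.74, 3.96, 2.54 and 3.21 CPM in Sham and 8.9, 10.7, 26.1, 9.43 and 10.3 CPM in MSCs (1.96 ± 0.46, adjusted p = 0.00256). H2-Ab1, a class II chain, was 1.49, 1.16, 1.21, 0.68 and 1.33 CPM and 4.22, 5.07, 14, 4.71 and 4.3 CPM (2.47 ± 0.42, adjusted p = 7.77e-05). In both genes MSC replicate 2 was more than 2-fold above the other MSC mice, which themselves lay above every Sham mouse. Ciita, the transactivator of class II genes, changed by 0.31 and H2-DMa by 0.07, and neither passed the test. With the Sham mice of week 1 alone 5 class II genes were higher, and Cd74 lost its call.

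Chemokines had the highest median of all lists, 2.11, with 11 of 20 members higher and Cx3cl1, the neuronal chemokine that signals to microglia, lower (-0.21). In Sham 7 of the 20 were under 0.1 CPM. These 7 passed the filter on low counts through groups of injured mice, so the height of the median is in part set by the filter. The median was 1.71 without MSC replicate 2 and 2.57 without Sham replicate 4. With the Sham mice of week 1 or week 3 alone it was 2.75 and 1.77. Ccl2, which attracts monocytes, was 0, 0.0738, 0.101, 0 and 0.154 CPM in Sham and 1.51, 1, 2.19, 1.72 and 0.624 CPM in MSCs (4.37 ± 0.63, adjusted p = 5.15e-06). Cxcl10, an interferon-induced attractant of T cells, was 0.172, 0.0738, 0.101, 0.124 and 0.0926 CPM and 2.03, 2.22, 1.79, 3.66 and 2.65 CPM (4.41 ± 0.50, adjusted p = 1.41e-07). Neither gene overlapped between the groups. The neutrophil attractant Cxcl2 was listed at 0 counts in all Sham mice and stood at 0, 0.0911, 10, 0.0318 and 0.0624 CPM in MSCs, of which replicate 2 held nearly all. Summed over mice it was at least 127-fold higher in MSCs, against a floor of 3 counts over the Sham group, and the call was lost without MSC replicate 2 (3.73, adjusted p = 0.574).

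Cytokines and their receptors were higher in 15 of 20 members (median 0.80). Il1b was 0.0573, 0.148, 0.0336, 0.124 and 0.401 CPM in Sham and 0.383, 0.789, 6.97, 0.318 and 0.468 CPM in MSCs. The groups overlapped, MSC replicate 2 stood far above the rest, and without it the call was lost (1.65, adjusted p = 0.204, against 3.54 ± 0.93, adjusted p = 0.0069 with all mice). Receptors rose as well. Tnfrsf1a and Tnfrsf1b, the receptors of TNF, were higher by 0.99 and 1.15, Il4ra by 1.01 and Csf2rb by 1.74. Il6, Tnf and Il10 had too few counts to be tested.

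Toll-like receptor and inflammasome genes were higher in 18 of 20 members (median 0.93). Tlr2, which recognises lipopeptides, was 1, 1.11, 0.94, 0.897 and 1.57 CPM in Sham and 5.88, 6.01, 9.53, 4.87 and 5.08 CPM in MSCs, without overlap (2.50 ± 0.31, adjusted p = 6.47e-07). The endosomal receptors Tlr7 and Tlr13 rose by 1.56 and 1.94, and the inflammasome genes Nlrp3, Pycard and Casp1 by 1.28, 0.88 and 0.64. Fc and paired receptors were higher in 11 of 13 members (median 1.31). Fcgr3, an activating IgG receptor, was 7.16, 6.13, 7.32, 6.06 and 13.6 CPM in Sham and 15.5, 18.7, 24.2, 19.5 and 19.2 CPM in MSCs, where Sham replicate 4 was close to the lowest MSC mouse (1.27 ± 0.24, adjusted p = 0.000337). Without MSC replicate 2 the count of this list fell to 7, and for Trem1, which amplifies myeloid responses, the call was lost without Sham replicate 0, 1, 2, 3 or 4 or MSC replicate 2 (adjusted p between 0.0528 and 0.576).

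The 4 genes that passed the test among 15 associated with alternative activation of macrophages were Arg1, Msr1, Tgm2 and Clec10a. Arg1, the arginase that competes for the substrate of nitric oxide synthase, was 0.229, 0.295, 0.101, 0.186 and 0.0926 CPM in Sham and 2.08, 0.971, 9.05, 1.27 and 1.37 CPM in MSCs (3.99 ± 0.86, adjusted p = 0.00116). All MSC mice lay above all Sham mice, with replicate 2 the highest, and without it the change in Arg1 was 2.91 (adjusted p = 0.0123). Msr1, a scavenger receptor, rose by 3.97 and Tgm2 by 0.67. Without MSC replicate 2, or with the Sham mice of week 1 alone, 2 of the 4 calls were left, those of Arg1 and Msr1. Mrc1 and Retnla, with 0.35 and -0.31, did not pass the test, Retnla being near the lowest detectable level in both groups.

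Lysosomal genes were higher in 15 of 20 members (median 0.42), and among abundant genes the proteases Ctsd and Ctsb were prominent. Ctsd was 231, 228, 243, 242 and 293 CPM in Sham and 504, 484, 577, 465 and 512 CPM in MSCs (1.04 ± 0.11, adjusted p = 8.7e-08). Ctsb was 394, 412, 409, 391 and 426 CPM and 557, 521, 619, 525 and 538 CPM (0.44 ± 0.05, adjusted p = 2.28e-07). For both proteases the groups were clearly apart. Lamp1, a membrane protein of lysosomes, was 262, 265, 268, 270.1 and 253 CPM and 299.6, 290.4, 302, 295 and 297 CPM, a small rise without overlap (0.17 ± 0.04, adjusted p = 0.00365). Ctsc, which activates granule proteases, had the largest change among members that passed (1.16 ± 0.17, adjusted p = 1.32e-05), and Grn, which encodes progranulin, rose by 1.11. Apoe, the main lipid carrier of the brain, was 1088, 1087, 1029.7, 1106 and 989.7 CPM in Sham and 1245, 1562, 1497, 1433 and 1763 CPM in MSCs (0.50 ± 0.10, adjusted p = 0.000387).

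In iron and heme handling 6 of 12 genes rose. Hmox1, which breaks down heme, was 2.23, 2.46, 3.05, 3.31 and 4.11 CPM in Sham and 28.6, 12.7, 42.3, 18.5 and 20 CPM in MSCs, with every MSC mouse above every Sham mouse (3.02 ± 0.37, adjusted p = 6.75e-07). The ferritin light chain Ftl1 rose by 0.79, while Tfrc, the transferrin receptor that takes iron up, fell by 0.24 on the log2 scale. Of 17 genes of metallothioneins and oxidative stress 11 were higher. Cybb, the catalytic subunit of the phagocyte oxidase, was 0.859, 1.26, 0.839, 0.433 and 0.926 CPM and 3.91, 3.76, 6.49, 3.44 and 2.81 CPM (2.23 ± 0.35, adjusted p = 1.83e-05), and its partners Ncf1, Ncf4 and Cyba rose by 1.39, 1.85 and 1.67. Mt1, a metal-binding protein of astrocytes, was 86.8, 91.3, 91, 87.6 and 93.7 CPM in Sham and 105, 137, 154, 144 and 165 CPM in MSCs (0.65 ± 0.18, adjusted p = 0.00895). Its call was lost with the Sham mice of week 1 alone. The glutathione synthesis genes Gclc and Gclm changed by -0.02 and 0.02 and did not pass the test.

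Leukocyte adhesion genes were higher in 5 of 11 members. The integrin Itgb2 was 3.55, 3.59, 4.23, 4.33 and 8.37 CPM in Sham and 14.3, 14.9, 23.5, 12.2 and 13.7 CPM in MSCs, with Sham replicate 4 the highest Sham mouse (1.71 ± 0.25, adjusted p = 6.62e-06). The endothelial ligands Vcam1 and Icam1 rose by 0.43 and 1.16, and Cd47, which restrains phagocytes, fell by 0.15. Sele changed by 0.02 and did not pass the test.

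Collagens and matrix genes were higher in 17 of 20 members (median 0.55). Col3a1, a fibrillar collagen, was 7.73, 9.6, 7.18, 5.88 and 7.26 CPM in Sham and 189, 115, 44.4, 91.4 and 54.7 CPM in MSCs (3.71 ± 0.35, adjusted p = 1.44e-08). Here replicate 0 was the highest MSC mouse and replicate 2 the lowest. Lox, which crosslinks collagen, was 0.974, 1.3, 1.38, 1.14 and 0.988 CPM and 9.28, 7.44, 5.15, 9.84 and 5.21 CPM (2.67 ± 0.32, adjusted p = 3.62e-07). The basement membrane chains Col4a1 and Col4a2 changed by 0.41 and 0.16, of which the first passed the test. Among metalloproteinases and their inhibitors 10 of 17 were higher. Mmp12, the macrophage elastase, was 0.0286, 0.123, 0.0336, 0.0928 and 0.0926 CPM in Sham and 0.958, 0.728, 2.75, 1.08 and 1.03 CPM in MSCs (4.05 ± 0.76, adjusted p = 0.000235). Mmp3 had 2 counts over the Sham mice and 53 over the MSC mice, a ratio of 26.4 (95% counting interval 6.97 to 224), and the call was lost without Sham replicate 0, 1, 2, 3 or 4 or MSC replicate 2 (adjusted p between 0.0539 and 0.249).

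Cell cycle genes were higher in 23 of 24 members, with a median of 1.15. Mki67, a marker of dividing cells, was 4.01, 2.81, 3.26, 2.81 and 7.26 CPM in Sham and 26.1, 13.8, 20.8, 15.5 and 10.4 CPM in MSCs, without overlap (2.11 ± 0.25, adjusted p = 3.04e-07). Cdk1, the kinase that drives mitosis, was 0.43, 0.295, 0.369, 0.526 and 0.926 CPM and 5.06, 2.46, 3.6, 2.74 and 2.03 CPM (2.65 ± 0.26, adjusted p = 1.44e-08). For both genes replicate 0 was the highest MSC mouse and replicate 4 the lowest, and Sham replicate 4 was the highest Sham mouse. Top2a, Bub1 and Ccnb1 rose by 2.53, 2.49 and 2.43, and the replication factor Pcna by 0.23. Tyms, with 0.22, did not pass the test.

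**Figure D3:**
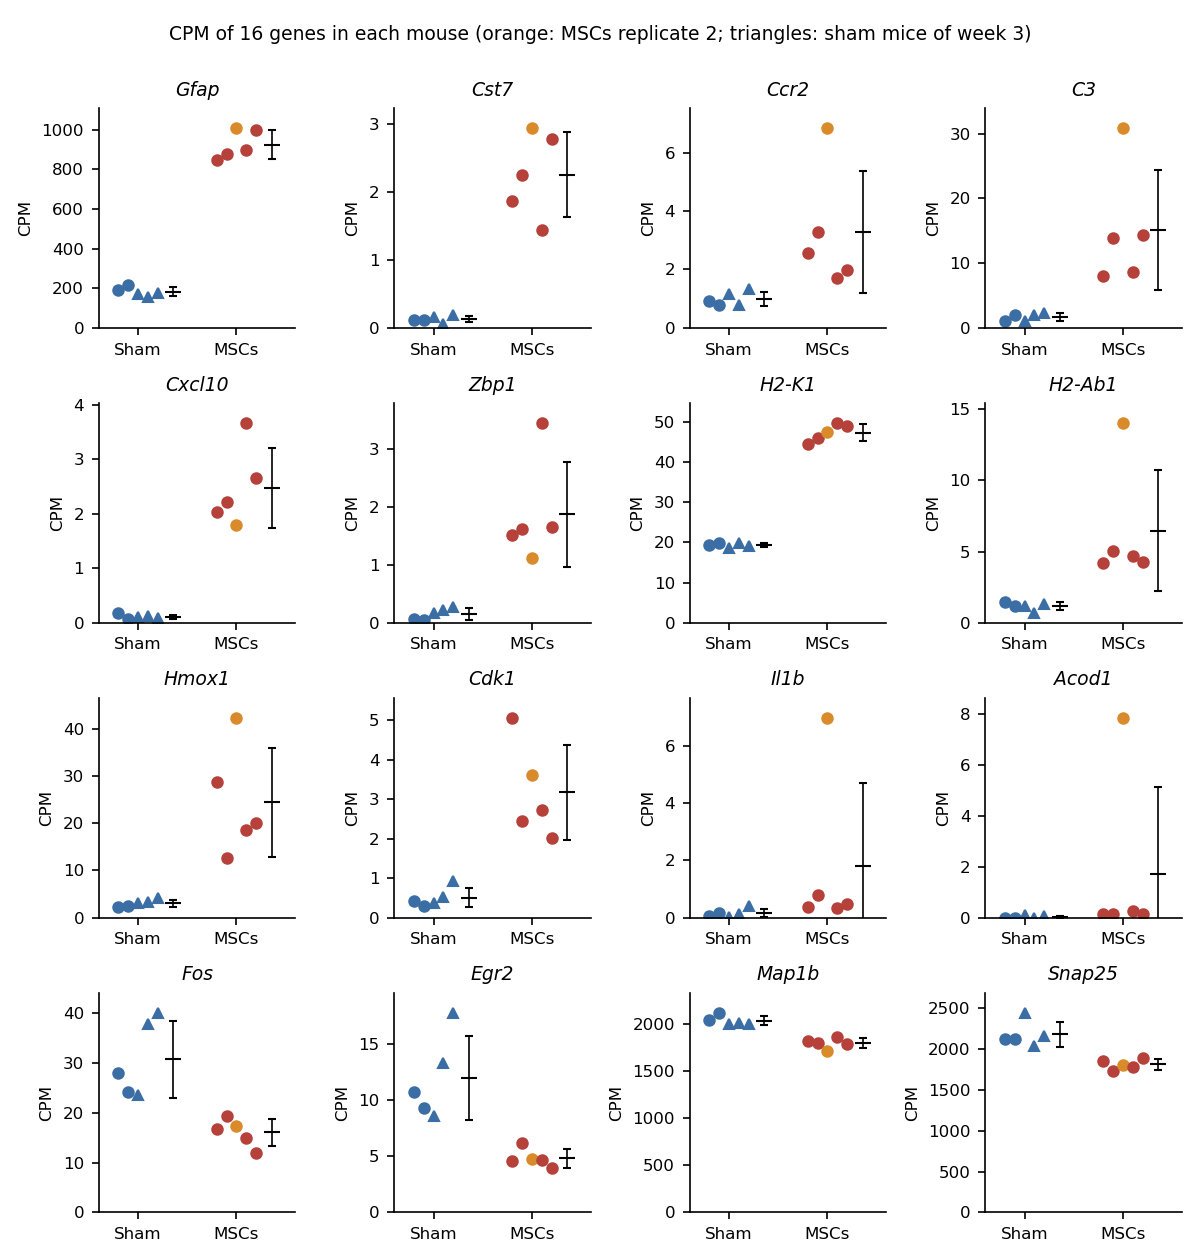
CPM of 16 genes in each mouse (y axis, linear from 0), with Sham in blue (circles for week 1, triangles for week 3), MSCs at 1 wpi in red with replicate 2 in orange, and bars for the mean and SD. In Gfap and H2-K1 the 5 MSC mice sit close together, whereas in Il1b and Acod1 the orange point lies far above the other MSC mice.

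Cholesterol synthesis genes fell in 16 of 20 members, with a median of -0.30, where 6.86% of all genes fell. Idi1, an isomerase of the pathway named after its values were seen, was 62.3, 60.5, 62.6, 61.5 and 51 CPM in Sham and 48.3, 40, 39.5, 43.2 and 39.4 CPM in MSCs (-0.50 ± 0.07, adjusted p = 6.81e-06). Every MSC mouse was below every Sham mouse, replicate 4 being the lowest in Sham and replicate 0 the highest in MSCs. Stard4, Insig1 and Hmgcs1 fell by 0.47, 0.43 and 0.41, and Srebf2, the regulator of the pathway, by 0.30 on the log2 scale. Mvk, Lss, Dhcr7 and Mvd had values between -0.29 and -0.14 and did not pass the test. The median was -0.25 with library totals as the scaling and -0.34 and -0.30 with the Sham mice of week 1 or week 3 alone.

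Neuronal immediate early genes, which are switched on by recent activity, had the lowest median of all lists, -0.80, and 11 of 14 fell. Fos was 28, 24.2, 23.7, 37.9 and 40.1 CPM in Sham and 16.7, 19.3, 17.3, 15 and 12 CPM in MSCs (-0.94 ± 0.20, adjusted p = 0.000936). Egr2 was 10.7, 9.28, 8.62, 13.4 and 17.8 CPM and 4.57, 6.16, 4.78, 4.65 and 3.93 CPM (-1.31 ± 0.22, adjusted p = 5.26e-05). Neither overlapped between the groups, and Sham replicates 3 and 4 had the highest values. Egr1 was 249, 247, 294, 318 and 409 CPM in Sham and 165, 192, 179, 169 and 151 CPM in MSCs (-0.82 ± 0.14, adjusted p = 7.3e-05). Fosb, Npas4, Nr4a1 and Egr4 fell by 0.92, 0.86, 0.86 and 0.78 and Arc by 0.91 on the log2 scale, and Npas4 lost its call without Sham replicate 4 (-0.65, adjusted p = 0.0508). Jun, with 0.10, did not pass the test. With the Sham mice of week 1 alone the median was -0.47 and 6 members were lower, and with those of week 3 alone -0.89 and 9.

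Genes of the synapse were lower by small amounts. Of 18 synaptic vesicle and presynaptic genes 11 fell (median -0.16), of 23 channels 10 (median -0.15) and of 23 glutamate and GABA receptors 8 (median -0.14). Snap25, a component of the vesicle fusion machinery, was 2124, 2124, 2442, 2029 and 2156 CPM in Sham and 1848, 1731, 1796, 1775 and 1893 CPM in MSCs, without overlap (-0.27 ± 0.05, adjusted p = 0.000332). The AMPA receptor subunit Gria3 fell by 0.22 and the sodium channel Scn1a by 0.24 on the log2 scale. Gria1, at 691, 640.3, 503, 489.5 and 479 CPM and 422, 479.9, 439, 588 and 631 CPM, was highest in the Sham mice of week 1 and did not pass the test (-0.13 ± 0.12, adjusted p = 0.514). When libraries were scaled by totals the 3 medians were -0.11, -0.10 and -0.10 and 6, 5 and 6 members fell, so the size of this shift depended on the scaling. With the Sham mice of week 3 alone 4 presynaptic genes, 8 channels and 4 receptors fell, and without MSC replicate 2 there were 7, 6 and 7.

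Among abundant neuronal genes the microtubule protein Map1b was 2049, 2123, 2000.2, 2016 and 2001 CPM in Sham and 1825, 1803, 1715, 1862 and 1794 CPM in MSCs (-0.18 ± 0.05, adjusted p = 0.00641). The groups did not overlap, and the call was lost with the Sham mice of week 3 alone. Bdnf, a neurotrophin, was 30.3, 28, 27.4, 27.6 and 32.3 CPM in Sham and 17.7, 19.3, 15.3, 25.3 and 22.9 CPM in MSCs (-0.54 ± 0.12, adjusted p = 0.00171). Of 24 growth factors and receptors 7 rose and 3 fell. Cntf rose by 0.82, Tgfbr2 by 0.69, Igfbp2 by 0.75 and Fgf2 by 0.57, while Vegfa and Ntrk3 fell by 0.23 and 0.22. Without MSC replicate 2, or with scaling by totals, 1 lower gene was left, Bdnf. Cntf lost its call with the Sham mice of week 3 alone. Axon guidance genes had 2 of 27 members lower and respiratory chain genes 2 of 20, with medians of -0.10 and -0.06, and both lists lost these calls under scaling by totals. These shares, 7.41% and 10%, were near the 6.86% of all genes tested that were lower.

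Myelin genes were nearly level, with 2 of 14 members higher and a median of -0.00. Mbp, a main protein of myelin, was 2148, 2324, 2547, 2494 and 2291 CPM in Sham and 2459, 2436, 2333, 2217 and 2187 CPM in MSCs (-0.02 ± 0.07, adjusted p = 0.89). Trf, the iron carrier that oligodendrocytes make, was 304, 334, 401, 342 and 339 CPM and 496, 471, 515, 453 and 415 CPM, without overlap (0.45 ± 0.10, adjusted p = 0.000934). No precursor gene of 11 passed edgeR's test, with 3 at an unadjusted p under 0.05, 2 called by DESeq2 and 0 by limma-voom. Pdgfra, the growth factor receptor of these precursors, was 70.7, 70.2, 66.5, 64.5 and 62 CPM and 77.8, 68.9, 70.2, 77.7 and 66.3 CPM (0.11 ± 0.06, adjusted p = 0.182).

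Endothelial genes were higher in 3 of 15 members, and the tight junction protein Cldn5 was 34.6, 32.3, 27.6, 27.2 and 31.5 CPM in Sham and 35.3, 32.3, 28.7, 24.9 and 23.6 CPM in MSCs (-0.08 ± 0.13, adjusted p = 0.745). Of 10 pericyte and smooth muscle genes edgeR called 0, with 1 at an unadjusted p under 0.05, 1 called by DESeq2 and 0 by limma-voom. Of 10 genes of meninges and perivascular fibroblasts 2 passed, the collagens Col1a1 and Col1a2. Dcn, a proteoglycan of the same cells, was 29.4, 36.9, 12, 10.1 and 10.5 CPM in Sham and 25.5, 18.4, 22.1, 27.2 and 36.2 CPM in MSCs (0.37 ± 0.31, adjusted p = 0.481), with the Sham mice of week 1 above those of week 3. Choroid plexus genes had a median of 0.60 with 0 of 10 called by edgeR, DESeq2 or limma-voom and 2 at an unadjusted p under 0.05. The transthyretin gene Ttr varied from 77.9 to 837 CPM in Sham and from 336 to 1311 CPM in MSCs.

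Regional neuron genes gave few calls. Lamp5, a cortical gene, was lower (-0.44 ± 0.15, adjusted p = 0.0377), but the call was lost without Sham replicate 2, 3 or 4 or MSC replicate 1, 3 or 4 (adjusted p between 0.0588 and 0.109). Reln, which encodes a secreted protein of interneurons, was lower (-0.29 ± 0.09, adjusted p = 0.0179), but the call was lost without Sham replicate 0 or 1 (adjusted p between 0.07 and 0.117). Of 13 striatal and 10 thalamic genes edgeR, DESeq2 and limma-voom each called 0, and 0 had an unadjusted p under 0.05. For the striatal list the median was -0.05 with all Sham mice and 1.37 with those of week 1 alone, as the 2 weeks differed. With the striatal level as a covariate 1958 genes were higher and 1442 lower than in Sham.

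By size of change, the largest rises among genes with at least 1 CPM and no overlap of the mice were those of Clec4e, Tgm1, Acod1, Cdkn2a, Clec4d, Hcar2, Ccn5, Cxcl10, Ccl2 and Lilr4b. Clec4e, a C-type lectin of myeloid cells, had 1 count over the Sham mice and 211 over the MSC mice, a ratio of 211 (95% counting interval 37.4 to 8355). It was 0.383, 0.243, 4.83, 0.0637 and 0.187 CPM in the MSC mice, and without replicate 2 the call was lost (4.57, adjusted p = 0.13). Acod1, which makes itaconate in activated macrophages, was 0, 0, 0.101, 0 and 0.0618 CPM in Sham and 0.137, 0.152, 7.85, 0.255 and 0.125 CPM in MSCs, and its call was lost in the same way (2.35, adjusted p = 0.44). Clec4d, a related lectin, was 0.438, 0.334, 4.86, 0.573 and 0.561 CPM in MSCs and kept its call without replicate 2 (3.85, adjusted p = 0.0113). Hcar2, a receptor for hydroxybutyrate, was 0.684, 0.759, 5.23, 0.478 and 0.499 CPM in MSCs against at most 0.0926 CPM in Sham (5.12 ± 1.14, adjusted p = 0.0016). Without replicate 2 its change was smaller (3.77, adjusted p = 0.0199), and with the Sham mice of week 1 alone the call was lost (adjusted p = 0.0505).

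By the same rule the largest falls were those of Cyp2g1, Omp, Egr2, Fos, Fosb, Wnt6, Npas4, Nr4a1, Egr1 and Egr4. Cyp2g1 and Omp are genes of olfactory tissue. Cyp2g1 was 1.32, 2.46, 1.17, 0.309 and 0.216 CPM in Sham and 0.0821, 0.0304, 0.0534, 0 and 0 CPM in MSCs (-4.85 ± 0.99, adjusted p = 0.000629). Omp was 1.86, 3.2, 1.44, 0.711 and 0.803 CPM and 0.328, 0.273, 0.4, 0.255 and 0.406 CPM (-2.27 ± 0.45, adjusted p = 0.000457). The first 3 Sham mice were the highest in both genes, and the part of the dissection in this difference was not tested. Wnt6, a signalling ligand, was 1.69, 2.02, 1.68, 1.36 and 1.61 CPM in Sham and 0.739, 1.12, 1.12, 0.541 and 0.936 CPM in MSCs (-0.90 ± 0.23, adjusted p = 0.00552). Its call was lost with the Sham mice of week 3 alone.

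**Figure D4:**
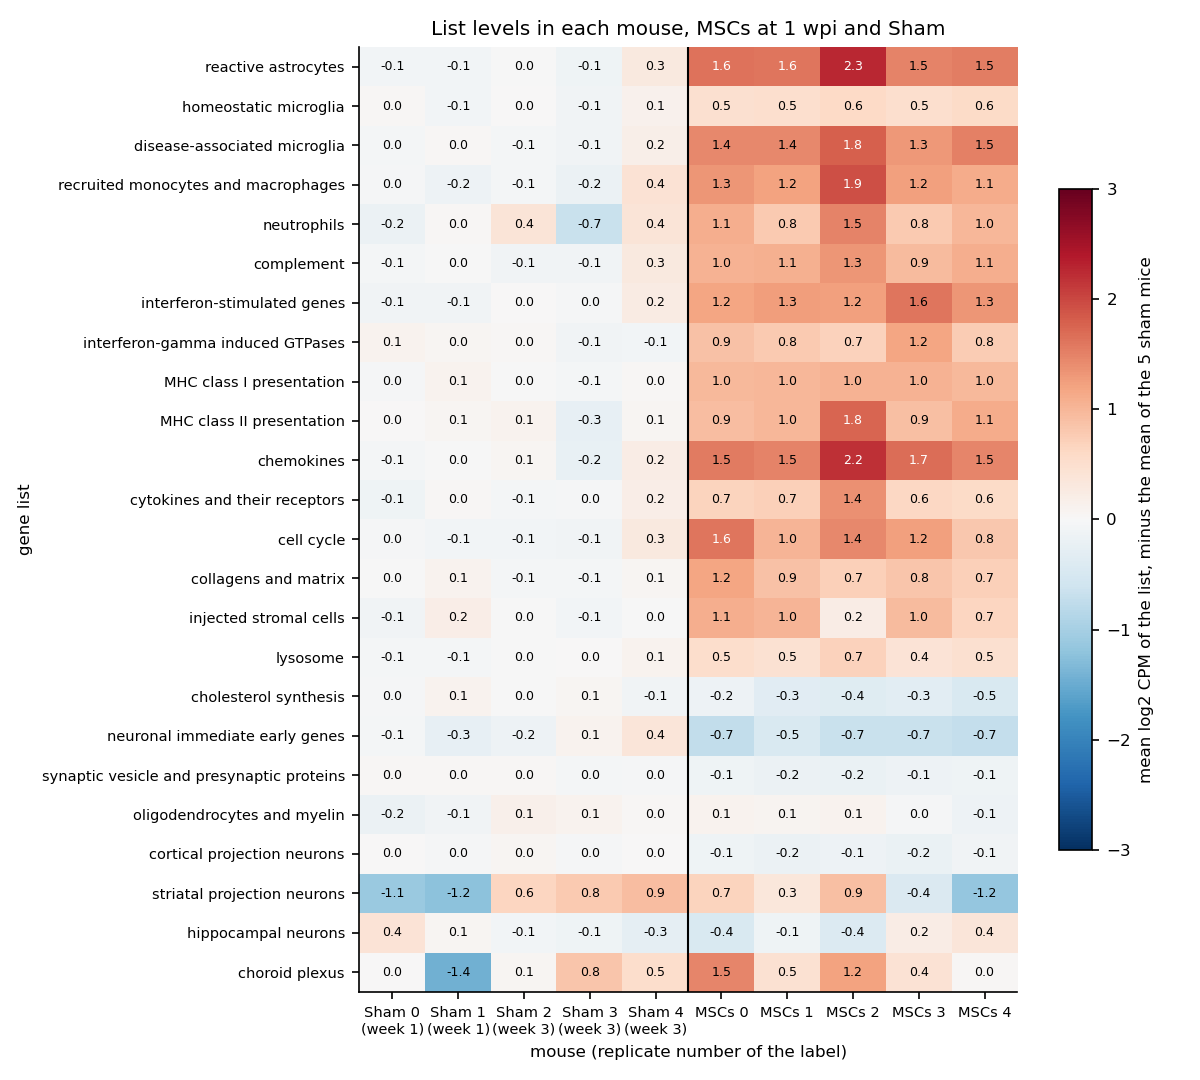
Mean log2 CPM of 24 lists (rows) in each Sham and MSC mouse (columns), minus the mean of the 5 Sham mice; the colour scale runs from blue (lower) to red (higher). All 5 MSC mice are red in the glial, interferon and MHC rows, replicate 2 is darkest in the monocyte, MHC class II, chemokine and cytokine rows and palest in that of injected stromal cells, and the striatal row follows the week label of the Sham mice. The row of injected stromal cells includes genes that passed the filter on low counts through mice given cells, so its height over Sham supports nothing.

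The MSC mice were not alike in which lists were highest. In the list of recruited monocytes their mean log2 CPM was 2.52, 2.40, 3.12, 2.43 and 2.31, against 1.02 to 1.62 in Sham. In the interferon-stimulated list it was 2.68, 2.74, 2.71, 3.08 and 2.82, against 1.37 to 1.74. The cell cycle list gave 2.76, 2.18, 2.58, 2.37 and 1.95, against 1.05 to 1.45. Replicate 2 was thus highest for monocytes, replicate 3 for interferon and replicate 0 for cell division, and in each list all MSC mice lay above all Sham mice. MHC class I was the most even of these lists, at 3.61 to 3.68 in MSCs and 2.58 to 2.74 in Sham.

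Against PBS mice of the same time point, which were injured and injected without cells, 17 genes differed (0.0992% of the genes tested) and all 17 were higher in MSCs. At an unadjusted p under 0.05 there were 423 higher and 341 lower genes, and DESeq2 called 25 higher and 1 lower and limma-voom 14 higher and 0 lower. When the 2 groups were fitted alone edgeR called 0 genes, with 742 at an unadjusted p under 0.05, so these calls rest on a spread estimated over all groups. With all groups fitted 764 genes were under that unadjusted threshold. Both counts are under 0.05 of the 17131 genes tested, the share that falls there when no gene differs. Both comparisons, with Sham and with PBS, use the same MSC mice.

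Of the 20 collagens and matrix genes 5 were among the 17, namely Col3a1, Col5a2, Col6a2, Lox and Bgn. Col3a1 was 17.2, 15.9, 38, 17.9 and 12.4 CPM in PBS, against the MSC values given above (2.29 ± 0.32, adjusted p = 0.000451). Col1a1, the main chain of fibrillar collagen I, was 30.8, 27.9, 56.2, 32.8 and 27.2 CPM in PBS and 183, 124, 58.2, 99.6 and 78.4 CPM in MSCs (1.64 ± 0.25, adjusted p = 0.000858). In both genes all MSC mice lay above all PBS mice, although in Col1a1 replicate 2 of MSCs was only just above replicate 2 of PBS. Fbln2, a matrix glycoprotein, was 5.64, 9.76, 9.35, 7.07 and 7.53 CPM in PBS and 37.7, 27.5, 10.2, 25.6 and 19.4 CPM in MSCs (1.61 ± 0.21, adjusted p = 0.000234). Col1a2, Col5a2, Col6a2, Bgn, Thbs2, Lox, Dpt and Ccn5 were higher by 1.59, 1.02, 0.67, 0.84, 0.62, 1.40, 2.12 and 2.01 on the log2 scale. Angpt4, a ligand of the Tie2 receptor, was higher by 1.90 and Ifi202b by 3.35. Ifi202b had 2 counts over the Sham mice and 67 over the MSC mice, a ratio of 33.4 (95% counting interval 8.9 to 282). Among the groups looked at, it passed the filter on low counts through mice given cells, so its call against PBS supports nothing.

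Cdkn2a, a cell cycle inhibitor that accumulates in cultured cells, was 0.0286, 0.0246, 0, 0 and 0.0618 CPM in Sham, 0.0317, 0.168, 0.0643, 0.157 and 0.176 CPM in PBS and 2.49, 1.88, 0.214, 1.21 and 0.78 CPM in MSCs (3.39 ± 0.51, adjusted p = 0.000673). Replicate 2 was the lowest MSC mouse and still above every PBS mouse. Among the groups looked at, Cdkn2a passed the filter on low counts only through mice given MSCs or IL-4 MSCs at 1 wpi. Its call against PBS thus supports nothing. Hoxc6, a positional gene of trunk and limb tissue, was listed at 0 in all PBS mice, had 3 counts in Sham and 78 in MSCs, and stood at 0.63, 0.516, 0.0801, 0.924 and 0.187 CPM in MSCs (ratio to Sham 25.9, 95% counting interval 8.56 to 129). It passed the filter on low counts through mice given MSCs or IL-4 MSCs at 1 wpi, so its call against PBS supports nothing. Eno1b was 0, 0.12, 0.289, 0.314 and 0 CPM in PBS and 8.18, 7.44, 0.107, 8.54 and 5.74 CPM in MSCs (5.37 ± 0.90, adjusted p = 0.00358), with replicate 2 among the PBS mice. Eno1b is a near-identical copy of Eno1 and Gm10260 is a predicted gene, so the division of their counts from those of similar genes is uncertain.

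**Figure D5:**
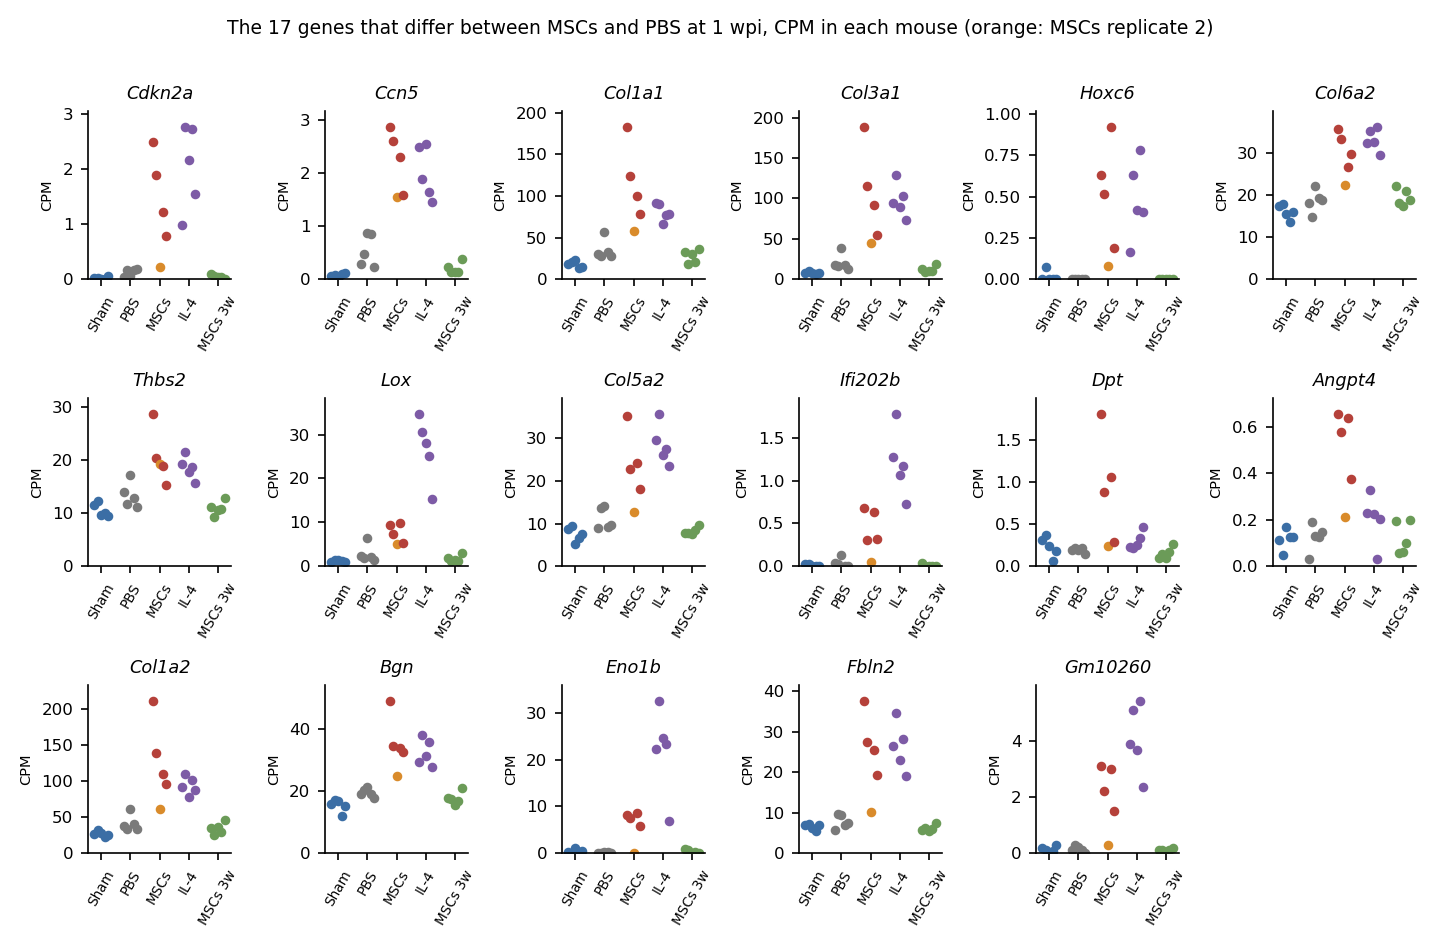
CPM in each mouse (y axis, linear from 0) of the 17 genes that differed between MSCs and PBS at 1 wpi, for Sham mice, for mice of 1 wpi given PBS, MSCs or IL-4 MSCs, and for MSC mice of 3 wpi; MSC replicate 2 is orange. In most panels the MSC mice lie above Sham, PBS and MSCs at 3 wpi, and replicate 2 is the lowest of the MSC mice at 1 wpi. Mean levels of Eno1b, Cdkn2a and Hoxc6 were 22, 2.03 and 0.48 CPM in IL-4 MSCs, against 6, 1.32 and 0.467 CPM in MSCs at 1 wpi. High levels of these genes were thus not particular to MSCs without IL-4 mRNA, and the difference was not tested.

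A list of genes known from trunk and limb stromal cells was included because the MSC group had received such cells. Of its 16 members tested 4 were under 0.1 CPM in Sham, and the others were present there. In MSCs 6 members were higher than in Sham, and the list median was 0.49. Of these 6, Hoxc10, Hoxa9 and Hoxa10 had counts only in mice given MSCs or IL-4 MSCs at 1 wpi, among the groups looked at. The PBS and IL-4 MSC mice of 3 wpi were not looked at for these genes. The 3 genes, and Hoxc6 named above, passed the filter on low counts through the mice given cells. Their calls were thus set by where they are present, and the count and median support nothing. Hoxc10 was listed at 0 in all Sham mice and was 0.739, 0.425, 0.0267, 0.35 and 0.187 CPM in MSCs, at least 19.6-fold higher against the floor of 3 counts over the Sham group. Hoxa9 and Hoxa10, whose values were seen before they were chosen for naming, were also at 0 in all Sham mice and at least 12.6-fold and 13.6-fold higher. All 3 genes were at 0 in the PBS mice and in the MSC mice at 3 wpi. The mean log2 CPM of the list includes these genes, so its height over Sham likewise supports nothing. It was 1.13, 1.06, 0.27, 1.01 and 0.71 in the MSC mice and between -0.05 and 0.24 in Sham. Within the MSC mice replicate 2, the highest in monocyte genes, was the lowest here. Prrx1, a stromal transcription factor also present in brain, was 11.9, 11.4, 12, 11.3 and 11.2 CPM in Sham and 15.2, 15.1, 14.6, 15.1 and 12.4 CPM in MSCs (0.33 ± 0.08, adjusted p = 0.00247), whereas Hoxc8, Hoxc9 and Hoxd9, with 1.04, 0.58 and 0.09, did not pass the test. Whether matrix transcripts came from the injected or the host cells was not tested.

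Between MSC mice at 1 wpi and at 3 wpi 1041 genes differed, 6.08% of those tested, with 841 higher at 1 wpi (4.91%) and 200 lower (1.17%). Cell cycle genes were higher at 1 wpi in 23 of 24 members and interferon-stimulated genes in 30 of 34, with median differences of 1.07 and 1.02. Mki67 was 3.43, 3.87, 3.24, 2.98 and 4.81 CPM at 3 wpi (2.24 ± 0.25, adjusted p = 6.16e-07), in the range of the Sham mice. Ifit1 was 3.33, 3.04, 2.58, 4.44 and 2.87 CPM at 3 wpi (1.07 ± 0.24, adjusted p = 0.0044). Of the reactive astrocyte genes 15 of 23 were higher at 1 wpi, of disease-associated microglial genes 13 of 23, of monocyte genes 11 of 20 and of lysosomal genes 12 of 20.

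How many antigen presentation genes differed between the times depended on single mice. H2-K1 was 40.9, 33.6, 32.2, 39.2 and 82.5 CPM at 3 wpi, of which replicate 4 was far above the others (0.05 ± 0.19, adjusted p = 0.948). Of 16 MHC class I genes 3 were higher and 1, H2-Q7, lower at 1 wpi, and of 11 class II genes 1 was higher. Without replicate 4 of 3 wpi 7 class I and 2 class II genes were higher and 0 lower, and without MSC replicate 2 of 1 wpi 1 class I gene was higher and 0 class II genes. Cd74 was 13.9, 19.2, 10.7, 14.6 and 69.2 CPM at 3 wpi, again with replicate 4 the highest (-0.96 ± 0.40, adjusted p = 0.172). In the complement list C3ar1, C1qb and C1qc were higher at 1 wpi, by 1.38, 0.67 and 0.77.

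Some T cell and cytotoxic genes were lower at 1 wpi. Of 18 T cell genes 6 were lower at 1 wpi than at 3 wpi, and these were Cd3e, Cd3g, Cd8a, Cd8b1, Cd2 and Lat. Cd3e was 0.518, 0.716, 0.503, 0.265 and 1 CPM at 3 wpi (-1.91 ± 0.38, adjusted p = 0.00112), and 4 of the 5 mice were above every MSC mouse of 1 wpi. Of 9 cytotoxic genes Nkg7, Gzmb and Prf1, the last of which forms pores in target cells, were lower at 1 wpi, by -2.81, -3.34 and -2.28 on the log2 scale. Replicate 4 of 3 wpi was the highest in all 3, with 1.63 CPM of Gzmb against at most 0.258 CPM in the other mice of its group. Without it the call of Gzmb was lost (-1.68, adjusted p = 0.118), Nkg7 and Prf1 stood at -2.32 and -1.97 (adjusted p = 0.0177 and 0.0163), and all 6 T cell genes passed the test. The immediate early genes Egr1, Egr4 and Fosb and the cholesterol genes Idi1 and Srebf2 were also lower at 1 wpi, by values between -0.56 and -0.15. The matrix gene Col3a1 was 12.4, 8.97, 9.68, 9.77 and 18.4 CPM at 3 wpi (3.06 ± 0.33, adjusted p = 6.16e-07), below every MSC mouse of 1 wpi. Without MSC replicate 2 of 1 wpi the count of genes that differed between the times was 661, and without replicate 4 of 3 wpi it was 1329.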

How the data were processed

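RNA-seq libraries were made from tissue around the injection site, 1 per mouse. Per the labels the authors used cutadapt 2.4, FastQC 0.11.8, kallisto 0.46, sleuth 0.30 and R 3.6.1. Reads were assigned without alignment to protein-coding GENCODE transcripts, and the deposited table holds estimated counts per gene, summed over transcripts and not normalized, beside TPM values, which are not reported here, and the authors' own comparisons (fold changes, p-values and q-values), which were not used. The table held 0 columns of other samples. Assignment to transcripts divides reads between near-identical genes by a model, so values of close copies are uncertain.

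Estimated counts were rounded, and genes with low counts were removed by edgeR's filter, leaving 17131 of 21203. All 34 libraries were fitted together with edgeR 4.0.16 (R 4.3.3, TMM normalization, quasi-likelihood test, two-sided), with group as the only term. P-values were adjusted by Benjamini-Hochberg over all genes tested, with a threshold of 0.05. CPM are scaled by TMM, and log2 CPM have a prior count of 2. Replicate numbers, which the labels do not tie to pairs, were not used in the model. A list's level in a mouse is the mean log2 CPM over its tested members. Intervals and floors (3 counts) cover counting error only. Named genes were the 10 largest changes each way among genes with at least 1 CPM and no overlap of the mice, the 6 largest changes each way in mean CPM, the first and the most changed member of each list and the genes that differed from PBS, of which some are not reported here. Members and lists were chosen with earlier results of these data known. Alternatives were DESeq2 1.42.0, limma-voom (limma 3.58.1), other scalings and filters, a striatal covariate, a replicate block, Sham mice of 1 or of 3 weeks alone, an added size of change and leaving out each mouse. The scripts were tested on simulated data. Promoter sequences are from RefSeq (GRCm38.p6), matched by symbol. A mouse of the PBS group at 3 wpi that the authors excluded was not analysed here.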

Additional observations from a re-analysis of the deposited data

Results flagged for a closer look

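For each named gene and group of 5 mice, the highest or lowest mouse was singled out where its gap to the nearest of the others exceeded Dixon's 95% limit. Of 246 groups 38 had such a mouse. Chance gives about 1 in 20 for independent groups of normally distributed values. The named genes were partly chosen by size of change and share the same mice, so 38 is not to be read against that rate. In MSCs 18 of 24 such values belonged to replicate 2. Its CPM stood apart from the other MSC mice in Clec4e (4.83), Acod1 (7.85), Clec4d (4.86), Hcar2 (5.23), Lilr4b (5.74), Fcrls (54.9), S100a8 (5.15), C3 (30.9), Cd74 (26.1), H2-Ab1 (14), Cxcl2 (10), Il1b (6.97), Tlr2 (9.53), Trem1 (1.25), Arg1 (9.05), Mmp12 (2.75), Mmp3 (0.961) and Itgb2 (23.5). For Cxcl2 the other MSC mice had 0 to 0.0911 CPM, and for Cd74 they had 8.9 to 10.7 CPM. Among the other MSC mice the values that stood apart were 69.3 CPM for Nr4a1 in replicate 1, 0.364 CPM for Cd3e in replicate 1, 0.121 CPM for Nkg7 in replicate 1, 12.4 CPM for Prrx1 in replicate 4, 3.44 CPM for Zbp1 in replicate 3 and 129 CPM for Epha5 in replicate 1. In Sham 11 of 14 such values belonged to replicate 4, whose CPM stood apart in Lilr4b (0.247), Npas4 (33.7), Egr4 (40.5), Ctsd (293), Fcrls (24.2), C1qa (39.8), Gbp2 (3.61), Fcgr3 (13.6), Ctsc (13.1), Mki67 (7.26) and Itgb2 (8.37). The others were 0.0246 CPM for Clec4e in replicate 1, 0.0619 CPM for Klrb1c in replicate 3 and 0.0738 CPM for Hoxc6 in replicate 1, in groups whose other 4 mice were at 0. Any value above 0 is singled out there, and these are at or under the floor of 3 counts, so 35 groups remain when these 3 are left out. Replicate 2 of the PBS mice at 1 wpi was likewise above its group in Cxcl2, with 0, 0.577, 7.68, 0.157 and 0.0293 CPM in the PBS mice, and in Acod1, with 0.222, 0.433, 8.32, 0.22 and 0.176 CPM.

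The change from Sham differed between MSCs and PBS at 1 wpi for 17 named genes by edgeR's test of the difference, with log2 differences of Cdkn2a 3.39, Ccn5 2.01, Col1a1 1.64, Col3a1 2.29, Hoxc6 6.99, Col6a2 0.67, Thbs2 0.62, Lox 1.40, Col5a2 1.02, Ifi202b 3.35, Dpt 2.12, Angpt4 1.90, Col1a2 1.59, Bgn 0.84, Eno1b 5.37, Fbln2 1.61 and Gm10260 3.66. It differed between 1 wpi and 3 wpi in MSCs for 48 named genes. Log2 differences above 2 were Tgm1 4.07, Cdkn2a 4.82, Clec4d 3.26, Ccn5 3.41, Ccl2 2.79, Lilr4b 2.26, Hoxc10 6.57, Arg1 3.35, Col3a1 3.06, Mki67 2.24, Cdk1 2.84, Hmox1 2.60, Hoxc6 6.99, Lox 2.05, Ifi202b 5.34, Dpt 2.45, Eno1b 3.98 and Gm10260 4.08. Those from 0 to 2 were Cxcl10 1.77, Gfap 1.06, Ctsd 0.69, Eef1a1 0.12, Ctsb 0.38, Aqp4 0.42, Fcrls 1.13, Trem2 0.75, Trf 0.38, Col1a1 1.99, Prrx1 0.29, Ifit1 1.07, Zbp1 1.97, Gbp2 0.70, Tlr2 1.29, Itgb2 0.87, Col6a2 0.60, Thbs2 0.91, Col5a2 1.45, Angpt4 1.96, Col1a2 1.85, Bgn 0.98 and Fbln2 1.97, and those below 0 were Fosb -0.56, Egr1 -0.49, Egr4 -0.41, mt-Nd2 -0.23, Cd3e -1.91, Nkg7 -2.81 and Grik1 -0.26. Fitted differences of Hoxc6 and Hoxc10 are taken against groups listed at 0 and are no bound. Among the groups looked at, Hoxc6, Hoxc10, Cdkn2a and Ifi202b passed the filter on low counts through mice given cells, so their calls support nothing.

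In mice given IL-4 MSCs at 1 wpi, which entered no tested comparison of the report, Hoxc10, Hoxa9 and Hoxa10 had mean levels of 0.482, 0.28 and 0.339 CPM, where every Sham mouse was listed at 0.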

How the results depend on the processing

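The comparison with Sham called 3050 genes, and 514 when an absolute log2 change of 1 or more was also required. Leaving out 1 mouse gave between 2306 and 3000 genes, and the other alternatives stayed within 1.5 times the count. Against PBS 17 genes were called, 26 by DESeq2 and 0 when edgeR fitted the 2 groups alone. In that fit 742 of 17131 genes had an unadjusted p under 0.05, no more than falls there when no gene differs. Leaving out 1 mouse gave between 11 and 27 genes, the lowest without PBS replicate 0 or 4 and the highest without MSC replicate 2. Without replicate 2 of both groups, an alternative chosen after the data were seen, 31 genes were called. Between 1 and 3 wpi in MSCs 1041 genes were called, 554 when the 2 groups were fitted alone and 206 with the size of change required as well, and leaving out 1 mouse gave between 661 (without MSC replicate 2 of 1 wpi) and 1329. The labels do not say that replicate numbers mark pairs, and deviations of mice with the same number correlated with r between -0.299 and 0.097 for MSCs and Sham, between 0.0227 and 0.4 for MSCs and PBS, and between -0.13 and 0.336 for the 2 times. In 3 of the 5 MSC mice, replicates 0, 2 and 4, r with PBS was above 0.1 and highest for the same number (0.242, 0.143 and 0.4). With the replicate number as a block 3239, 16 and 1111 genes were called. Of 123 named genes 100 were called against Sham, 66 of them under all alternatives but the added size of change, and 34 lost the call under at least 1. No called gene reversed its direction, 9 genes that were not called changed sign, and 43 of 1008 recomputed list medians moved by more than the spread between mice. Except where a construction with fewer mice shows it, the cause was not tested. Depth limits genes near the floor of 3 counts, which was between 0.0722 and 0.0975 CPM in MSC and Sham mice.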
